A study of Mus musculus with 6 samples.

Results

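The transcripts of 36 aminoacyl-tRNA synthetases were examined in LSK cells (lineage marker-/Sca1+/cKit+), the bone marrow fraction that holds haematopoietic stem cells and early progenitors. The members were found by the gene names of the array's probes and comprised 20 subunits and enzymes of the cytosol and 16 enzymes of the mitochondrion, of 27248 named genes on the array and 16090 named genes with a tested probe. The study asked how loss of Atg5, a gene required for autophagosome formation, changes gene expression in these cells in newborn mice. RNA of 3 control samples (Atg5w/w;VaviCre+) and 3 Atg5f/f;Vav samples (Atg5f/f;VaviCre+) was hybridised to 1-colour Agilent arrays, with 1 array per sample. All mice were C57BL/6 and aged P6 to P8 (postnatal days), and both groups carried the Cre transgene, so that by their labels the groups differed in the floxed Atg5 alleles. The Vav promoter drives Cre in the haematopoietic lineage, and no label tells if a sample is a single mouse or a pool. Each n therefore counts arrays, and p-values measure only the spread between these samples.

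Aminoacyl-tRNA synthetases join each amino acid to its matching tRNA, the step that fixes the meaning of a codon. Mammalian cells keep separate enzymes for the cytosol and for the mitochondrion, both kinds encoded in the nucleus, and several cytosolic enzymes are held together with scaffold proteins in the multisynthetase complex. Gars and Kars each give rise to a cytosolic and a mitochondrial form from the same gene. Many cytosolic synthetase genes are known targets of ATF4, the transcription factor of the integrated stress response, and Wars is also known as a gene induced by interferon gamma. Autophagy returns amino acids to the cell, which is the textbook link between Atg5 and amino acid supply.

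Each probe is a 60-mer, and the probes below belong to the genes for the amino acids at which the cytosolic and mitochondrial enzymes differed most. The Cars, Wars and Wars2 probes printed here are not the brightest of their genes, on which the comparisons of enzymes below rest. Coordinates are those of mm9, on which the array was designed, and the probes are written in the sense of the transcript. The cysteinyl and tryptophanyl probes of Cars and Wars rose in Atg5f/f;Vav arrays, whereas the listed Cars2 probes moved in opposite directions without passing the test. The listed Wars2 probe did not pass either, and its groups overlapped.
Cars, chr7:150754990-150755326, over a gap in the genome: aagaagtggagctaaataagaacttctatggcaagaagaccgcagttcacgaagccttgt
Wars, chr12:110104366-110104425: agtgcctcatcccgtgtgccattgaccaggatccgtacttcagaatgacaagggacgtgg
Wars2, chr3:99009150-99009209: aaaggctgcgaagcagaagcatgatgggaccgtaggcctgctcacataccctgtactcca
Cars2, chr8:11547757-11547816: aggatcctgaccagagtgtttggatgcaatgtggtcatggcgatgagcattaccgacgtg
Cars2, chr8:11516152-11516211: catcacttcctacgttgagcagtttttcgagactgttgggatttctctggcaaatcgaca

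Promoter windows of RefSeq (GRCm38.p6), from 250 bases before to 50 bases after each start site, were given for 13 cytosolic and 14 mitochondrial members. Cars, Hars, Lars, Nars, Rars, Vars, Wars, Hars2 and Pars2 had no entry. The letters TGATGNAA, a composite site bound by ATF4 with C/EBP factors, were searched on both strands and found in 5 of the 13 cytosolic windows (38.5%) and in 0 of the 14 mitochondrial ones, against 4.51% of 27025 genes. The stretches that hold the letters are shown. All 5 of these genes were called higher, as were 7 of the 8 cytosolic genes whose window lacked the letters. Capitals mark the match on either strand, and each stretch ends within 20 bases of the start site or 30 bases beyond the match.
Aars, chr8:111033700-111033861, plus strand: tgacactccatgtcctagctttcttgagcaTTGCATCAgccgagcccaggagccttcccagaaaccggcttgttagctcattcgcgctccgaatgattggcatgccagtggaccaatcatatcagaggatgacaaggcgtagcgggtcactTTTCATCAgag
Gars, chr6:55037941-55038008, plus strand: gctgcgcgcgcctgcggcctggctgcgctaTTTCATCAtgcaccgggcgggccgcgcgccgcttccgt
Iars, chr13:49682107-49682149, plus strand: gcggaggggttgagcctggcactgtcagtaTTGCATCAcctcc
Tars, chr15:11399639-11399703, minus strand: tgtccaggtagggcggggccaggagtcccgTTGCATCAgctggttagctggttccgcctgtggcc
Yars, chr4:129189876-129189922, plus strand: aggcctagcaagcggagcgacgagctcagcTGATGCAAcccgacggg

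The first match lay 112 bases before the start site of Aars, 30 bases before that of Gars and 15 bases before that of Tars, and in Iars and Yars the match lay just after the start site. The E-box CACGTG was found in 4 cytosolic windows (Aars, Farsb, Iars and Tars), in 1 mitochondrial window (Ears2) and in 8.09% of all genes. The NRF1 core GCGCATGC was found in 0 cytosolic windows, in 3 mitochondrial windows (Rars2, Vars2 and Wars2) and in 3.05% of all genes. The interferon-stimulated element core GAAANNGAA was found in Qars and in 9.76% of all genes, and the STAT letters TTCNNNGAA were found in Aars, Kars and Nars2 and in 9.55% of all genes. A match of letters is a description of the window and does not show that a factor was bound.

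Levels are given as log2 signal, the log2 intensity minus the 75th percentile of the same array, so that 0 is that percentile. They compare arrays for 1 probe and do not rank different genes. The targeted gene came first. Its 1 probe (chr10:44083997-44084056) read 1.10, 0.93 and 1.06 in control and 1.46, 1.51 and 1.74 in Atg5f/f;Vav arrays. Atg5 was thus higher in the group labelled as lacking it, by 0.54 on the log2 scale (SE 0.12, adjusted p = 0.0209 from limma). The position of the probe relative to the floxed exon was not determined, so it does not check the labels, and each direction below rests on them. The 6 arrays shared 1 slide and 1 scan, control in its row 1 and Atg5f/f;Vav in its row 2, so the effect of the row and that of the genotype cannot be told apart. The gate genes Kit (3.50 to 4.12), Ly6a (1.31 to 3.30), Cd34 (5.69 to 6.55) and Flt3 (2.85 to 4.47) were well above background on all 6 arrays.

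The cytosolic synthetases rose nearly as a whole in Atg5f/f;Vav LSK cells. Of the 20 members, 19 were called higher by limma at an adjusted p under 0.05, 0 were called lower, and Dars alone did not pass. Among all 16090 named genes 20.1% were called higher and 14.4% lower. The median log2 fold change of the cytosolic members was 0.87, a 1.83-fold rise, with a range of 0.20 to 1.24, against −0.01 over all named genes. For 19 members every Atg5f/f;Vav array lay above every control array, which held for 31.6% of all named genes. Cytosolic synthetases are bright on the array, and among the 3212 genes between the quartiles of their mean signal 34.3% were called higher, with a median log2 fold change of 0.23. In bulk samples, more cells of a type and more RNA per cell cannot be told apart.

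The calls depended on the control arrays. Without control replicate 1 or control replicate 2, limma called 0 of the 36 members (27 and 29 had an unadjusted p under 0.05), with a lowest adjusted p of 0.0627 and 0.0611. The share of all named genes called in either direction was then 1.05% and 0.796%. With any other array left out, 24 to 27 members were called, and the sign of all 36 fold changes stayed as it was whichever array was left out.

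Wars, which charges tryptophan, rose most. Its log2 signal (chr12:110098245-110098304) was 3.59, 3.61 and 3.82 in control and 4.62, 4.89 and 5.22 in Atg5f/f;Vav arrays. The groups did not overlap, and the log2 fold change was 1.24 (SE 0.17, 2.36-fold, adjusted p = 0.0131 from limma). Its other tested probe, printed above, rose by 1.47 (SE 0.19, adjusted p = 0.0111).

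Mars, the methionyl enzyme that serves both initiation and elongation, had a log2 signal of 0.57, 0.43 and 0.76 in control and of 1.53, 1.43 and 2.04 in Atg5f/f;Vav arrays (chr10:126733940-126733999). The log2 fold change was 1.08 (SE 0.19, adjusted p = 0.0155). Cars, the cysteinyl enzyme, read 2.23, 2.19 and 2.52 in control and 3.08, 3.24 and 3.82 in Atg5f/f;Vav arrays (chr7:150743615-150743674). Its log2 fold change was 1.06 (SE 0.21, adjusted p = 0.0171), and all 3 of its probes were called higher with changes of 1.03 to 1.10. For both genes replicate 3 of the Atg5f/f;Vav group was the highest array.

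Aars, the alanyl enzyme, varied least of the cytosolic members in the control group, with 1.99, 2.01 and 2.07, and spread in the Atg5f/f;Vav group, with 2.66, 2.96 and 3.58 (chr8:113579376-113579434). The log2 fold change was 1.05 (SE 0.23, adjusted p = 0.0194). Yars, which charges tyrosine, read 1.14, 0.98 and 1.33 in control and 2.01, 2.05 and 2.51 in Atg5f/f;Vav arrays (chr4:128896047-128896106), with a log2 fold change of 1.04 (SE 0.17, adjusted p = 0.0152). Neither gene overlapped between the groups.

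Both genes that serve the cytosol and the mitochondrion were called higher. Gars, the glycyl enzyme, had a log2 signal of 4.90, 4.76 and 5.06 in control and of 5.69, 5.80 and 6.32 in Atg5f/f;Vav arrays. Its log2 fold change was 1.03 (SE 0.19, adjusted p = 0.0161). Kars, the lysyl enzyme of the multisynthetase complex, read 4.24, 4.12 and 4.41 in control and 4.88, 4.99 and 5.34 in Atg5f/f;Vav arrays, with a log2 fold change of 0.81 (SE 0.16, adjusted p = 0.0168). The array cannot divide these signals between the cytosolic and the mitochondrial form.

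**Figure D1:**
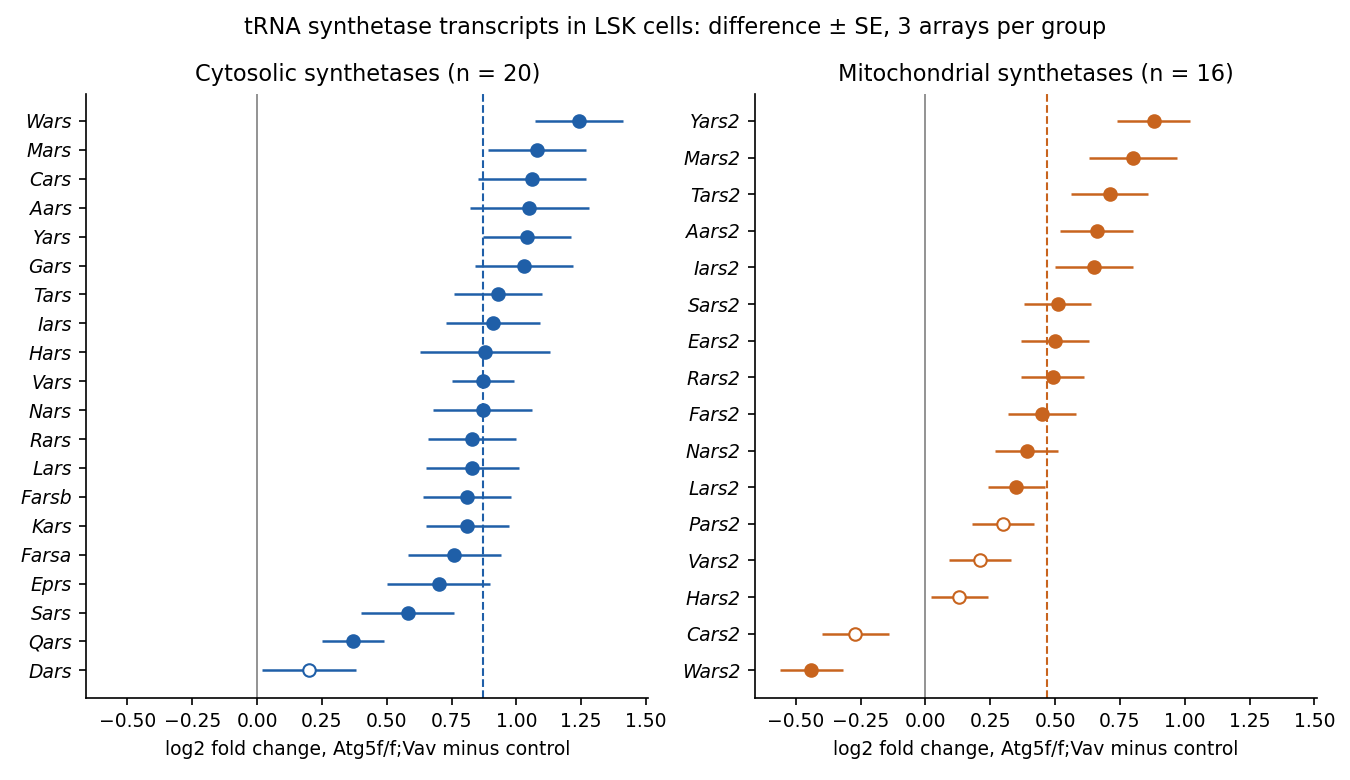
Log2 fold change (Atg5f/f;Vav minus control, x axis) of each synthetase gene ± SE from limma, with cytosolic genes on the left and mitochondrial genes on the right. Filled points passed an adjusted p of 0.05, open points did not, and the dashed lines mark the class medians of 0.87 and 0.47. All 20 cytosolic points lie above 0, and Cars2 and Wars2 are the only mitochondrial points below it.

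The other cytosolic members that passed lay between 0.37 and 0.93 on the log2 scale. In descending order, the enzymes for threonine (Tars, 0.93), isoleucine (Iars, 0.91), histidine (Hars, 0.88), valine (Vars, 0.87), asparagine (Nars, 0.87), arginine (Rars, 0.83) and leucine (Lars, 0.83) came first. The phenylalanyl enzyme is built of 2 kinds of subunit, and both rose, Farsb by 0.81 (SE 0.17, adjusted p = 0.0188) and Farsa by 0.76 (SE 0.18, adjusted p = 0.0221). Eprs, a fusion of the glutamyl and prolyl enzymes, rose by 0.70 (SE 0.20, adjusted p = 0.0369). Sars (0.58, SE 0.18, adjusted p = 0.0446) and Qars (0.37, SE 0.12, adjusted p = 0.0483), the seryl and glutaminyl enzymes, passed by the least. Both calls were lost with another scaling of the arrays. Under quantile normalisation Sars was at 0.27 (adjusted p = 0.197) and Qars at 0.02 (adjusted p = 0.86), and with the 75th percentile over detected probes they were at 0.37 (adjusted p = 0.0979) and 0.16 (adjusted p = 0.203). Eprs did not pass under either scaling, Farsa not under the first and Hars not under the second, which left 15 of 20 cytosolic members called under each. Apart from Sars and Qars, neighbours in this order differed by less than the larger of their standard errors.

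Dars, the aspartyl enzyme, did not pass. It read 1.01, 0.84 and 0.93 in control and 0.77, 1.19 and 1.43 in Atg5f/f;Vav arrays, so that Atg5f/f;Vav replicate 1 lay below all controls (difference 0.20, SE 0.18, adjusted p = 0.393 from limma). Its second probe had a difference of −0.02 (SE 0.11, adjusted p = 0.909). The 8 members in the multisynthetase complex had 7 calls and a median of 0.82, and the 12 outside it had 12 calls and a median of 0.90. The 9 class I enzymes had a median of 0.91 and the 10 class II enzymes one of 0.84, with Eprs holding a domain of each class. Neither division was tested, and members within each of these groups ranged more widely than the medians did.

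The mitochondrial synthetases moved less and less uniformly. Of the 16 members, 11 were called higher, 1 was called lower, and Cars2, Hars2, Pars2 and Vars2 did not pass, beside 20.1% higher and 14.4% lower among all named genes. The median log2 fold change was 0.47, a 1.39-fold rise, with a range of −0.44 to 0.88. Every Atg5f/f;Vav array lay above every control array for 12 members, against 31.6% of named genes, and below for Cars2 and Wars2, against 25.6% of named genes. Of the 3614 genes between the quartiles of the mitochondrial members' mean signal, 22.8% were called higher and 10.8% lower, with a median of 0.07.

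Yars2, the mitochondrial tyrosyl enzyme, rose most of these. Its log2 signal was 1.49, 1.42 and 1.67 in control and 2.33, 2.25 and 2.64 in Atg5f/f;Vav arrays, with a log2 fold change of 0.88 (SE 0.14, adjusted p = 0.0149). Its second tested probe rose by 0.86 (SE 0.19, adjusted p = 0.0196). Mars2, the mitochondrial methionyl enzyme, was dim on all arrays, with −2.65, −2.69 and −2.43 in control and −1.98, −1.94 and −1.45 in Atg5f/f;Vav arrays, and its log2 fold change was 0.80 (SE 0.17, adjusted p = 0.019).

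Tars2, the mitochondrial threonyl enzyme, read 3.40, 3.49 and 3.85 in control and 4.20, 4.24 and 4.42 in Atg5f/f;Vav arrays, with a log2 fold change of 0.71 (SE 0.15, adjusted p = 0.0188). Aars2 (alanine) read 0.24, 0.18 and 0.45 in control and 0.89, 0.80 and 1.16 in Atg5f/f;Vav arrays, with a log2 fold change of 0.66 (SE 0.14, adjusted p = 0.0188). Iars2 (isoleucine) read −0.21, −0.19 and −0.13 in control and 0.38, 0.26 and 0.77 in Atg5f/f;Vav arrays, with a log2 fold change of 0.65 (SE 0.15, adjusted p = 0.0226). The groups did not overlap for any of these probes. Another tested Iars2 probe had a negative difference and is given with the other probes. The remaining calls were Sars2 (0.51), Ears2 (0.50), Rars2 (0.49), Fars2 (0.45), Nars2 (0.39) and Lars2 (0.35), with adjusted p from 0.0235 to 0.0486. Sars2, Ears2, Rars2 and Lars2 each also had a tested probe with a negative difference, which did not pass and is given with the other probes.

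Wars2, the mitochondrial tryptophanyl enzyme, was the 1 member called lower. Its probe (chr3:99023010-99023069) read −0.79, −0.71 and −0.86 in control and −1.19, −1.11 and −1.37 in Atg5f/f;Vav arrays, with a log2 fold change of −0.44 (SE 0.12, adjusted p = 0.0308 from limma). The groups did not overlap, and the control level was 1.35-fold that of Atg5f/f;Vav arrays. The dimmer Wars2 probe printed above had a difference of −0.19 (SE 0.23, adjusted p = 0.546) with overlapping groups. The call for Wars2 was lost under quantile normalisation (−0.34, adjusted p = 0.0511), without a filter on dim probes (adjusted p = 0.0802), when its probes were averaged (−0.31, adjusted p = 0.08), with the methods' t-test (adjusted p = 0.0572) and with any 1 control array or Atg5f/f;Vav replicate 1 left out (adjusted p = 0.0502 to 0.111).

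Cars2, the mitochondrial cysteinyl enzyme, was the other member below 0. Its brighter probe read 0.70, 0.80 and 0.40 in control and 0.31, 0.38 and 0.39 in Atg5f/f;Vav arrays (difference −0.27, SE 0.13, adjusted p = 0.148). Its second probe, of nearly the same brightness, had a difference of 0.28 (SE 0.14, adjusted p = 0.143), so the sign depended on the probe. The remaining members without a call were Pars2 (0.30, SE 0.12, adjusted p = 0.0826), Vars2 (0.21, SE 0.12, adjusted p = 0.205) and Hars2 (0.13, SE 0.11, adjusted p = 0.395), for proline, valine and histidine.

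Set against its control mean, the median cytosolic member stood at −0.03, −0.11 and 0.15 in control and at 0.68, 0.72 and 1.23 in Atg5f/f;Vav arrays. The median mitochondrial member stood at −0.05, −0.07 and 0.13 and at 0.40, 0.41 and 0.52. In the Atg5f/f;Vav arrays the cytosolic median was higher than the mitochondrial one by 0.28, 0.31 and 0.71. Among the control arrays the medians differed by −0.04 to 0.02, but centring on the mean of these same arrays holds both near 0 there. A shift equal for all probes of an array cancels in this difference of medians, but one that depends on brightness does not. The cytosolic members were brighter, with a median log2 signal of 2.77 against 0.57. All genes between the quartiles of each class's signal had median fold changes of 0.23 (cytosolic range) and 0.07 (mitochondrial range). The difference of the compartments' median fold changes was 0.40, and 0.33 under quantile normalisation. The part of brightness in it was not tested. With 3 arrays a group the exact permutation test cannot go below 0.1, and no p is given for a score over chosen members.

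**Figure D2:**
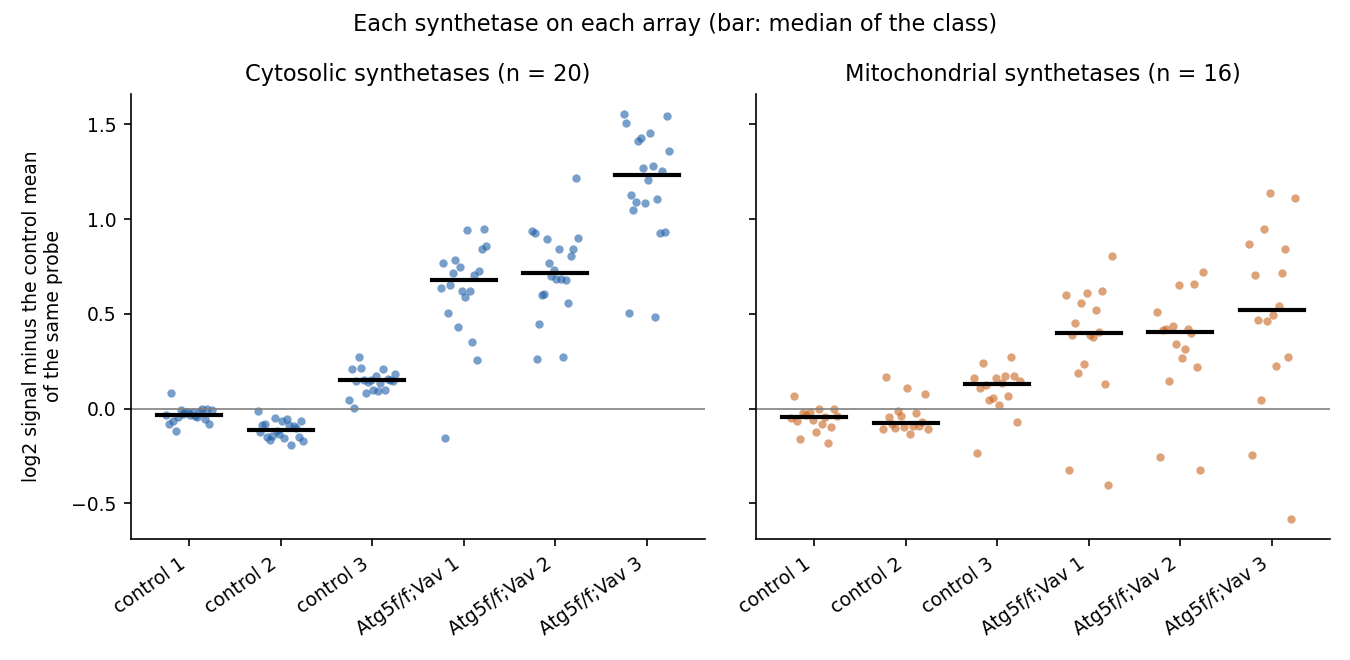
Log2 signal of each synthetase on each array minus the mean of the control arrays for the same probe (y axis), for the 3 control and 3 Atg5f/f;Vav arrays (x axis). Each point is a gene and each bar the class median. The cytosolic bar reaches 1.23 on Atg5f/f;Vav replicate 3, whereas the mitochondrial bar there is at 0.52.

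Enzymes for the same amino acid were then compared within each array, as the log2 signal of the cytosolic enzyme minus that of its mitochondrial partner. There were 17 such ratios, 2 of them with Eprs and 2 with Fars2. The difference between the groups was above 0 in all 17, with a median of 0.36, and in 13 every Atg5f/f;Vav array lay above every control array. Each of these 13 had an exact permutation p of 0.1 (2-sided), the smallest that 3 arrays against 3 allow, and 0.131 after Benjamini-Hochberg adjustment over the 17 ratios, so no single ratio could pass the test. The share of such ratios among other gene pairs was not computed, and the count is a description. Under quantile normalisation 14 of the 17 were above 0, without Mars and Mars2, Eprs and Ears2, and Sars and Sars2, and when all probes were averaged 15 were, without Farsb and Fars2, and Yars and Yars2.

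The tryptophanyl pair differed most. Wars minus Wars2 was 4.38, 4.32 and 4.68 in control and 5.81, 5.99 and 6.59 in Atg5f/f;Vav arrays, a difference of 1.67 (SE 0.26). Cars minus Cars2 was 1.53, 1.39 and 2.13 in control and 2.77, 2.86 and 3.43 in Atg5f/f;Vav arrays, a difference of 1.34 (SE 0.30), and with the mean of all probes of each gene it was 1.06. In both pairs the cytosolic probe rose while the mitochondrial probe had a negative difference. Hars minus Hars2 was −0.86, −0.80 and −0.89 in control and −0.62, −0.23 and 0.54 in Atg5f/f;Vav arrays, a difference of 0.75 (SE 0.34) in which Atg5f/f;Vav replicate 3 stood apart.

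At the other end of the order stood the seryl pair. Sars minus Sars2 was 3.19, 3.08 and 3.18 in control and 3.0, 3.31 and 3.36 in Atg5f/f;Vav arrays, a difference of 0.07 (SE 0.12, exact permutation p = 0.6). Yars minus Yars2 was −0.36, −0.44 and −0.34 in control and −0.32, −0.20 and −0.13 in Atg5f/f;Vav arrays, a difference of 0.16 (SE 0.07). Eprs minus Ears2 was 2.57, 2.52 and 2.61 in control and 2.70, 2.59 and 2.99 in Atg5f/f;Vav arrays, a difference of 0.19 (SE 0.12, exact permutation p = 0.2). The tyrosyl groups did not overlap, and the seryl and glutamyl groups did.

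**Figure D3:**
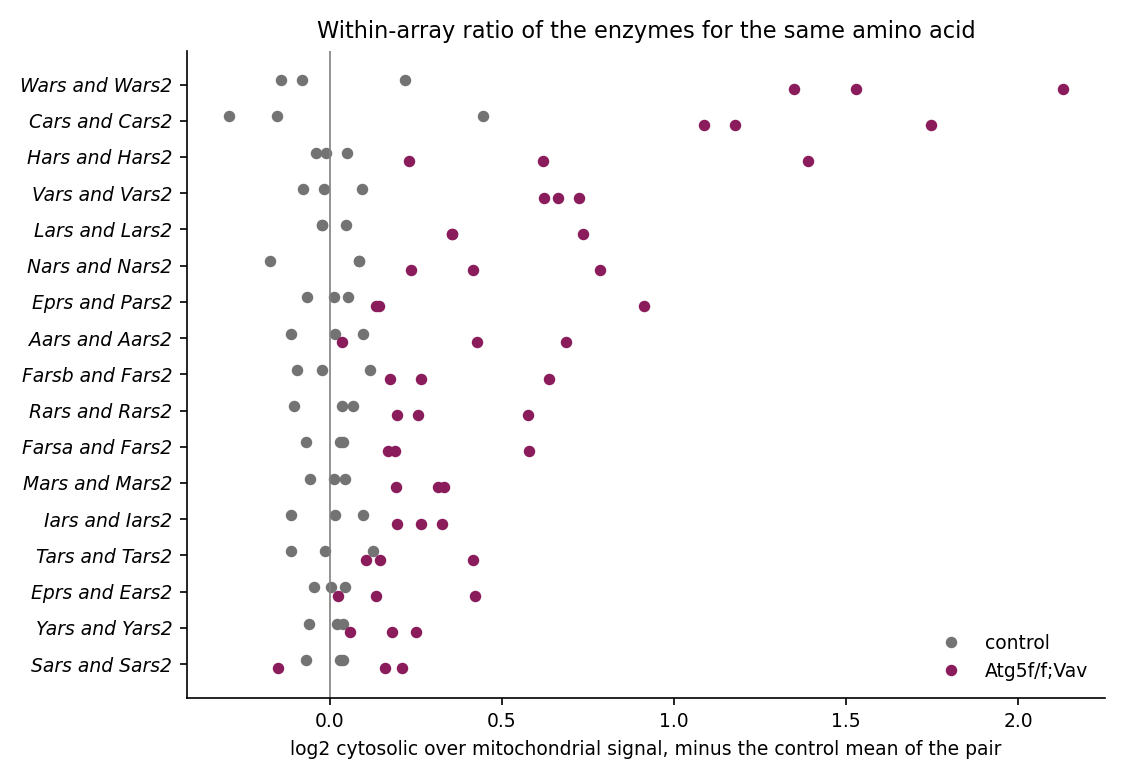
Within-array log2 ratio of the cytosolic over the mitochondrial enzyme for the same amino acid, minus the mean ratio of the control arrays (x axis), for 17 pairs (y axis). Grey points are the 3 control arrays and purple points the 3 Atg5f/f;Vav arrays. The purple points of Wars and Wars2 and of Cars and Cars2 stand farthest to the right, and those of Sars and Sars2 straddle 0.

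Many genes had several probes, and these did not always move alike. The array held 86 probes for the 36 genes, of which 77 were tested and 9 were too dim. Each gene is represented by its brightest probe. The 21 other tested cytosolic probes had a median log2 fold change of 0.52, with 10 called higher, 0 called lower and 3 below 0. The 20 other tested mitochondrial probes had a median of 0.08, with 7 called higher, 0 called lower and 10 below 0. Over all named genes the 11131 further probes had a median of −0.13, with 14.6% called higher and 20.4% called lower. Of the 24 synthetases with more than 1 tested probe, 13 had probes of one sign, and in 6 (Cars, Fars2, Lars, Rars, Wars and Yars2) every probe was called higher. The matching shares over all named genes with more than 1 tested probe were not computed, so these counts only describe the members. When all probes of a gene were averaged, the mitochondrial median dropped to 0.16 and the calls to 7, while the difference between the compartments' medians grew from 0.40 to 0.64.

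Iars2, Farsb and Eprs showed wide ranges within a gene. In Iars2 the representing probe rose by 0.65, and the other tested probes had differences of 0.21 and −0.57 (adjusted p = 0.489 and 0.108). For the probe at −0.57, dim on all arrays, every Atg5f/f;Vav array lay below every control array. In Eprs the probes at bases 2067 and 3022 of the transcript rose by 0.73 and 0.63 (adjusted p = 0.0291 and 0.0173), whereas the dim probe at base 5081 had a difference of −0.42 (SE 0.38, adjusted p = 0.405). In Farsb the further probes had differences of 0.35 and −0.40 (adjusted p = 0.152 and 0.111). Of the mitochondrial calls, Sars2 had a second probe at −0.34 (SE 0.11, adjusted p = 0.052) whose groups did not overlap. Ears2 had probes at −0.27 and −0.38 beside one called higher at 0.61, Lars2 had one at −0.16, and Rars2 had one at −0.11 beside 2 called higher (0.54 and 0.68). Among the members without a call, Pars2 had a second probe at −0.34, and Hars2 had probes at −0.32 and −0.05. None of these negative differences passed the test. Which transcript forms these probes match was not determined.

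**Figure D4:**
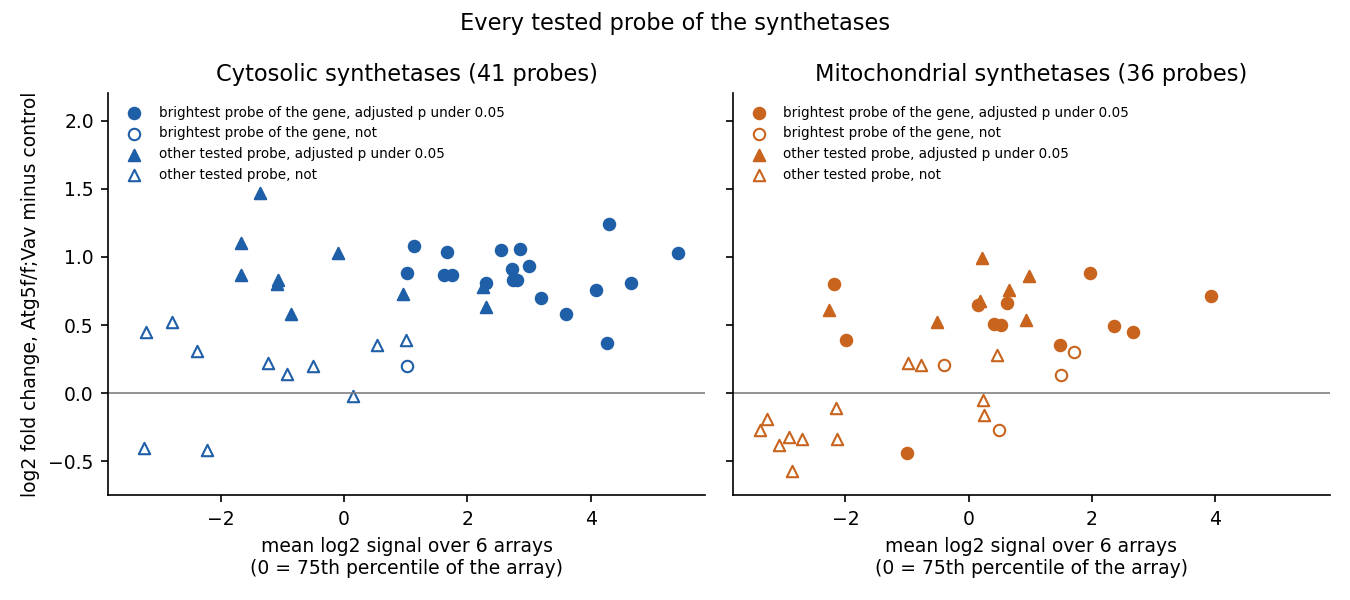
Log2 fold change (y axis) against mean log2 signal over the 6 arrays (x axis) of all 77 tested probes, 41 of cytosolic and 36 of mitochondrial synthetases. Circles are the brightest probe of each gene, triangles its other probes, and filled symbols passed an adjusted p of 0.05. The negative differences, −0.57 to −0.02, come mostly from dim mitochondrial probes.

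Genes that work beside the cytosolic synthetases held many calls. The selenocysteine route held 1 call among 5 genes and mitochondrial charging 1 among 4, near the background share given below. All 3 scaffold proteins of the multisynthetase complex were called higher, from Aimp1 at 0.59 (SE 0.13, adjusted p = 0.0188) to Eef1e1 at 0.92 (SE 0.17, adjusted p = 0.0166). Of 9 genes of tRNA maturation and export 8 were called higher, with a median of 0.82. Pop1, a subunit of RNase P, rose most of them at 1.05 (SE 0.18, adjusted p = 0.0153), and Elac1, a tRNA 3′ processing enzyme, had a difference of −0.51 (SE 0.17, adjusted p = 0.0596). Of 6 proofreading factors and peptidyl-tRNA hydrolases 5 were called higher (median 0.75), and the smallest difference was that of Prorsd1 at 0.34 (adjusted p = 0.0978). For all lists, those of markers below included, the background is the 20.1% of named genes called higher and the 14.4% called lower. The lists were chosen with earlier results of these data known.

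The selenocysteine route, which makes its amino acid on the tRNA after serine is attached, had 1 call among 5 genes and a median of 0.26. Sephs2, the selenophosphate synthetase, rose by 0.72 (SE 0.16, adjusted p = 0.02), and Secisbp2 had a difference of −0.0012 (adjusted p = 0.994). Of the 4 helpers that finish mitochondrial charging 1 was called (Gatc, 0.41, SE 0.11, adjusted p = 0.0282), with a median of 0.35 and Mtfmt lowest at 0.29 (adjusted p = 0.0741). The 9 mitochondrial translation factors had 5 calls and a median of 0.45, from Tsfm at 0.97 (SE 0.13, adjusted p = 0.012) to Mtif2 at −0.39 (SE 0.13, adjusted p = 0.0619). The 6 cytosolic elongation factors had 4 calls and a median of 0.45, with Eif5a at 0.61 (SE 0.13, adjusted p = 0.0181) and Eef1a1 at 0.07 (SE 0.11, adjusted p = 0.598).

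Known ATF4 targets were split. Of 11 tested genes 6 were called higher and 0 lower, with a median of 0.66. Asns, which makes asparagine, read 2.08, 2.02 and 2.08 in control and 3.40, 4.06 and 5.26 in Atg5f/f;Vav arrays, with a log2 fold change of 2.18 (SE 0.43, adjusted p = 0.0169). Ddit3, the stress gene also called Chop, had a difference of −0.24 (SE 0.36, adjusted p = 0.625), with values from −1.25 to 0.12 and overlapping groups. The genes that passed were Atf4 itself, Asns, Psat1, Phgdh, Mthfd2 and Nupr1, of which Asns, Psat1, Phgdh and Mthfd2 are enzymes of amino acid and one-carbon synthesis. Of 4 amino acid transporters only Slc3a2 was called (0.78, SE 0.20, adjusted p = 0.0267), and the smallest difference was that of Slc38a2 at 0.36 (adjusted p = 0.0764). Asns, like the cytosolic synthetases, was highest on Atg5f/f;Vav replicate 3, and so were genes of other lists, such as Iigp1 (5.19) and Car1 (3.98).

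**Figure D5:**
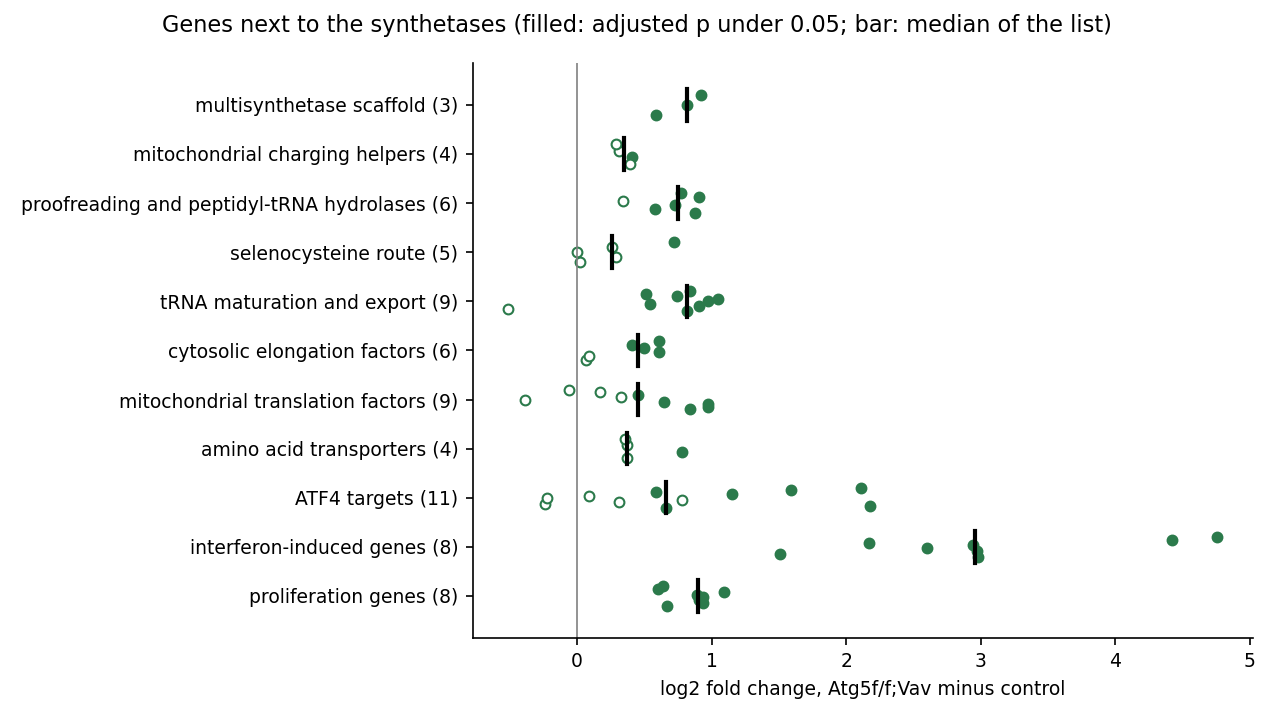
Log2 fold change (x axis) of each tested gene of the 11 pathway lists (y axis, number of genes in brackets). Filled points passed an adjusted p of 0.05 and bars are list medians, which run from 0.26 for the selenocysteine route to 2.96 for interferon-induced genes.

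Other programmes moved with the synthetases between the same arrays. All 8 interferon-induced genes were called higher (median 2.96), from Irf1 at 1.51 (SE 0.14, adjusted p = 0.00548) to Iigp1 at 4.76 (SE 0.28, adjusted p = 0.00261). All 8 proliferation genes were called higher (median 0.90), from Pcna at 0.60 (SE 0.13, adjusted p = 0.0192) to Aurkb at 1.09 (SE 0.21, adjusted p = 0.0167). Marker genes of stem cells and of other cell types differed as well. Of 4 stem cell markers 3 were called lower, against 14.4% of all named genes, with Mecom at −1.75 (SE 0.34). The summed linear signal of the 4 was 16.6 to 19.9 on control and 3.35 to 8.28 on Atg5f/f;Vav arrays. Such a sum follows the brightest probes of its list. Of 4 myeloid progenitor markers 3 were called higher, with sums of 73.1 to 175 and of 206 to 260, with Ctsg at 1.91 (SE 0.51) and Elane at −0.21 (SE 0.29).

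Of 6 erythroid markers 3 were called higher and 2 lower. Car1 rose by 3.80 (SE 0.56) and Hba-a1 fell by 2.26 (SE 0.32), and the sums were 217 to 494 on control and 73 to 112 on Atg5f/f;Vav arrays. These sums follow Hba-a1, the brightest probe of the list (log2 signal 6.00 to 8.90), and do not show the rises of Klf1, Epor and Car1. All 5 neutrophil markers were called lower (sums 77.2 to 161 and 36.9 to 66.6), with Ltf at −1.38 (SE 0.31) and Ngp at −1.21 (SE 0.34). All 3 stromal markers were called lower (sums 2.15 to 30.7 and 0.955 to 1.29), with Col1a1 at −5.98 (SE 1.84) and Sparc at −2.59 (SE 0.68). Control replicate 1 was near the Atg5f/f;Vav arrays for all 3. Col1a1 was well above background on only 3 arrays and dim on every Atg5f/f;Vav array (−5.49 to −5.16), so the size of its difference is uncertain. Of the 4 gate genes only Ly6a was called, at 1.57 (SE 0.15, adjusted p = 0.00624), and Flt3 had a difference of −0.87 (SE 0.31, adjusted p = 0.0676).

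The remaining marker lists held at most 1 call in each direction. Probes of C1qa and Cd3g, like those of Slc7a11 and Atf3 in the pathway lists, were too dim to be tested or were not found by name. Macrophage markers had 0 calls among 3 (sums 4.6 to 6.19 and 6.41 to 6.52), with Csf1r at 0.33 and Adgre1 at −0.31. T and NK cell markers had 0 calls among 2 (Nkg7 0.61, Cd3e −0.05), and mast cell and eosinophil markers had 0 among 3 (Mcpt8 0.76, Cpa3 −0.30). B cell markers had 1 call among 4 (Cd79a 0.95, Pax5 −0.39) and sums of at most 1.19 and 1.75. The called probe, that of Cd79a, was well above background on only 4 arrays. Megakaryocyte markers had 1 gene called higher and 1 lower among 3 (Itga2b 1.17, Gp9 −0.63). The part of interferon-induced genes, of proliferation and of these marker differences in the rise of the synthetases was not tested.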

How the data were processed

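RNA of LSK cells from 3 control and 3 Atg5f/f;Vav samples, grouped by their labels, was measured on 1-colour Agilent arrays. For each spot the authors deposited an intensity read by the scanner and background-corrected by Agilent Feature Extraction 12.0.3.1 (version from the submitters' processing notes), and a table of normalised signal that equals the intensity divided by 1 constant for each array (538.8 to 761.9), which lies below the percentile used here (620.3 to 881.4). Fold changes were computed here, and no fold or p column of the authors was used.

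Log2 intensity minus the array's 75th percentile over spots that are not controls was taken, outlier-flagged spots (64 to 81 an array) were left out, and spots of 1 probe were averaged. Of 56605 probes, the 32075 detected above background by the scanner software on 3 or more arrays were fitted with limma 3.58.1 in R 4.3.3 (lmFit, eBayes, 2-sided, Benjamini-Hochberg over all tested probes, threshold 0.05). Names equal to a probe or transcript identifier were not counted as named genes. The number of arrays limits the precision. The fit was tested on simulated data.

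Each gene is represented by its tested probe with the highest mean signal, and probes of the opposite sign are given as well. Values on every array are given for the 5 cytosolic and 5 mitochondrial members with the largest change, every member below 0, Gars and Kars, and the genes with the largest and smallest change of each list are named, with the 3 largest and 3 smallest pairs. Further genes named, such as Dars and the ATF4 targets that passed, were chosen after their values were seen. For 2 lists, 1 gene that this rule would name is not reported here. The members, pathway lists and marker lists were chosen with earlier results of these data known. Cytosolic and mitochondrial partners were compared by an exact permutation test over arrays. Alternatives were quantile normalisation, background correction by normexp (offset 50), the percentile over detected probes, the deposited values, other filters on dim probes, outlier-flagged spots kept, the methods' t-test, eBayes with a trend, the replicate block, leaving out each array in turn, averaging all probes of a gene, and the cytosolic group without Gars and Kars. Coordinates of probes are those of mm9, and an annotation of that build was not used here.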

Additional observations from a re-analysis of the deposited data

How the results depend on the processing

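Of the 36 members' fold changes, the direction under the alternatives differed in 7 cases, none of which passed the test. These were Hars2 under quantile normalisation (−0.02), Dars (−0.0024), Hars2 (−0.08) and Vars2 (−0.0003) with the 75th percentile over detected probes, and Cars2 (0.01), Hars2 (−0.08) and Pars2 (−0.02) with the mean of all probes. In 438 cases direction and side of the threshold stayed, in 166 a call was lost and in 1 a call was gained. The gained call was that of Cars2, lower with the 75th percentile over detected probes (−0.48, adjusted p = 0.0409 from limma). The 75th percentile over detected probes moved the median of all probes from −0.06 to −0.27 and the cytosolic median from 0.87 to 0.66. Spots well above background made up 59.4 to 59.9% on control and 53.6 to 56.7% on Atg5f/f;Vav arrays. The part of this difference in the shift was not tested.

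The count of cytosolic members called, 19 of 20, was 15 under quantile normalisation, 15 with the percentile over detected probes, and 13 without a filter on dim probes or with the mean of all probes. The count of mitochondrial members called, 12 of 16 with 11 higher, was 7 under quantile normalisation, 3 without a filter on dim probes and 7 with the mean of all probes. With the percentile over detected probes it was also 7, of which 5 were higher and Cars2 and Wars2 lower. The mitochondrial median of 0.47 was then 0.33, 0.26 and, with the mean of all probes, 0.16, and the difference of the compartments' medians rose from 0.40 to 0.64 with that mean. With the methods' t-test 0 cytosolic and 0 mitochondrial members passed after Benjamini-Hochberg adjustment (lowest adjusted p 0.0534), and 32 members had an unadjusted p under 0.05. Leaving out 1 array gave 0 to 18 cytosolic and 0 to 9 mitochondrial calls, and the count was 0 without control replicate 1 or 2. Medians over the left-out arrays were 0.68 to 0.97 (cytosolic), 0.40 to 0.55 (mitochondrial) and 0.28 to 0.50 (difference), the first and last being lowest without Atg5f/f;Vav replicate 3.

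The mean of its group was subtracted from each probe's values, and the remaining deviations were correlated between same-numbered samples of the 2 groups. These correlations were −0.07, 0.19 and 0.11, so the numbers were not taken to pair the samples. Without that subtraction the arrays correlated between groups at 0.952 to 0.985. With the replicate block 28 members were called, without Fars2, Lars2 and Nars2. With 1 slide and 1 scan for all 6 arrays, neither could be fitted as a block.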
